A study of Homo sapiens with 4 samples.

Results

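The genes described here are the sensors that detect foreign or misplaced nucleic acid inside a cell, and the adaptors that pass their signal on. They were 10 of the 12912 genes in the deposited count table and were chosen by symbol: DDX58, IFIH1, DHX58, DDX60, TLR3, MB21D1, IFI16, MAVS, TMEM173 and ADAR. All 10 were found and all 10 passed the filter on low counts. The name cytosolic fits most of them, but TLR3 signals from endosomes, IFI16 is mainly nuclear and ADAR is an editing enzyme.

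RNA was sequenced from 2 sublines of 786-O, an established human clear cell renal carcinoma line that lacks functional VHL, the substrate-recognition subunit of the ubiquitin ligase that degrades hypoxia-inducible factors. 786-O-VHL carried HA-tagged human VHL from a retroviral vector, and 786-O-Ctrl was its control. According to the study's methods and the sample titles, both sublines also carried a retroviral triple reporter of thymidine kinase, green fluorescent protein and luciferase. Each subline gave 2 libraries, and no source used here states that they came from separate cultures, so the p-values measure the spread between these libraries, which may be technical. The table gives both 786-O-Ctrl libraries the same number, so they are told apart by depth, as deeper and shallower.

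RIG-I and MDA5 recognise double-stranded or otherwise unusual RNA in the cytosol and act through MAVS on mitochondria, while cGAS recognises cytosolic DNA and makes a cyclic dinucleotide that activates STING. Both routes activate the kinase TBK1 and the transcription factors IRF3 and NF-κB, which switch on interferon genes. Several sensors are themselves interferon-stimulated genes, and ADAR edits double-stranded RNA so that the cell's own transcripts are not sensed.

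Total counts were 22141263 and 15714166 for the 786-O-Ctrl libraries and 2807779 and 16114120 for replicates 1 and 2 of 786-O-VHL. Replicate 1 of 786-O-VHL was the shallowest, and its members rest on 46 to 1436 counts. Levels are given in CPM, the share of a library's total count that a gene takes, with the total scaled by TMM. VHL itself stood at 42.9 and 43.9 CPM in 786-O-Ctrl and at 178 and 163 CPM in 786-O-VHL. Its log2 fold change was 1.96 (SE 0.0706, FDR = 2.865e-19). All 7 markers of the renal line were found. Their summed level was 3370 to 3399 CPM in 786-O-Ctrl and 1908 to 1929 CPM in 786-O-VHL, and VIM made up the largest share, at 1669 and 1699 against 751 and 709 CPM. PAX8, PAX2, VIM, KRT8 and CD70 were lower in 786-O-VHL and KRT18 did not pass the test (FDR = 0.1026). NDUFA4L2 was near the floor in 786-O-Ctrl, with 7 and 9 counts, and at the floor in replicate 1 of 786-O-VHL, with 3 counts. Replicate 2 of 786-O-VHL had 46 counts. The gene was called higher in 786-O-VHL (FDR = 9.757e-05), at 1.02 and 2.73 CPM in replicates 1 and 2 against 0.332 and 0.598 CPM in 786-O-Ctrl. The summed markers of other cell types stayed between 0.0665 and 1.02 CPM for leukocytes (CD14 alone) and 0.266 and 0.427 CPM for endothelium (PECAM1 alone). The 3 fibroblast markers summed to 10.4 to 11.4 CPM in 786-O-Ctrl and 14.6 to 15.3 CPM in 786-O-VHL. The part of these marker differences in the results below was not tested. In bulk RNA, fewer cells of a type and less RNA per cell cannot be told apart.

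Among the 10 members, the RNA sensors were higher in 786-O-VHL, and of the DNA sensors IFI16 was higher and cGAS was lower. By edgeR's quasi-likelihood test with Benjamini-Hochberg adjustment (FDR under 0.05), 7 of the 10 members were higher, 2 were lower and 1, TMEM173, did not pass. Of all 12335 genes tested, 32.6% were higher and 31.9% were lower by the same rule, so a call by itself was common. A change of over 2-fold was less common: 5 of the 10 members were higher by more than 2-fold, against 10.0% of all genes, and 0 were lower by more than 2-fold, against 7.52%. Of those higher, DHX58 and IFIH1 each fell under 2-fold in at least 1 alternative fit, as given below. The 2 libraries of each subline did not overlap for any member, with 8 higher and 2 lower in 786-O-VHL, against 40.8% and 39.2% of all genes. The median log2 fold change of the members was 0.97, and that of all genes was 0.02. DDX60 and DHX58, and IRF1, TRIM25 and STAT2 among the genes described further on, also stand in an interferon response list that the study printed. IKBKG, MRE11, G3BP1, SLC19A1 and ILF2 stand in other lists it printed. All levels and changes given here come from the libraries that the study analysed. The direction of a gene is therefore not independent evidence, whether or not the study printed that gene.

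**Figure D1:**
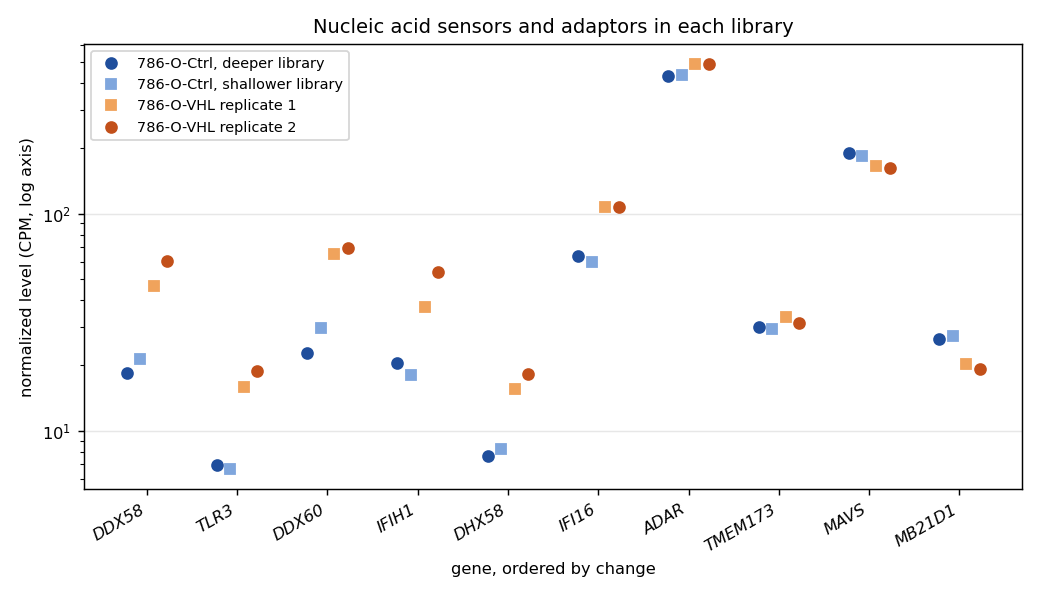
Level of each of the 10 members in the 4 libraries, in CPM on a log axis, with 1 point for each library. The 5 genes DDX58, IFIH1, DHX58, DDX60 and TLR3 are higher in 786-O-VHL by more than 2-fold in the fitted change, while MAVS, TMEM173 and ADAR differ little.

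DDX58 (ENSG00000107201; GRCh37 chr9:32455300-32526206, minus strand) encodes RIG-I, which recognises RNA with a 5′ triphosphate. Its level was 18.4 CPM in the deeper and 21.5 CPM in the shallower 786-O-Ctrl library, and 46.1 and 60.3 CPM in replicates 1 and 2 of 786-O-VHL. Both 786-O-VHL libraries were above both 786-O-Ctrl libraries. The means were 19.9 ± 2.18 and 53.2 ± 10.0 CPM (SD, n = 2). The log2 fold change, which here and below is the edgeR fit and not the ratio of mean levels, was 1.51 (SE 0.110, FDR = 1.46e-12), or 2.85-fold. It was the largest change among the members, at percentile 94.9 of all genes. The annotation places a second protein-coding gene on the same strand over 4471 bases of its exons, so reads of the pair could be split in counting.

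IFIH1 (ENSG00000115267; chr2:163123584-163175194, minus strand) encodes MDA5, the sensor of long double-stranded RNA. It was measured at 20.5 and 18.0 CPM in the deeper and shallower 786-O-Ctrl libraries and at 36.98 and 53.8 CPM in replicates 1 and 2 of 786-O-VHL. The groups did not overlap, and the 786-O-VHL libraries lay far apart. The change was 1.35 on the log2 scale (SE 0.119, FDR = 8.276e-11), or 2.54-fold. Without replicate 2 of 786-O-VHL the log2 fold change fell to 0.93, and it stayed past the threshold. Between the 786-O-VHL libraries, replicate 2 was above replicate 1 by 0.54 on the log2 scale (95% exact binomial interval 0.25 to 0.84, which covers counting error only). Among the 10302 tested genes with a mean count of at least 50 in these libraries, 4.01% differed by more. DDX58 differed the same way by 0.39 (0.13 to 0.66), and 10.1% of those genes differed by more.

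DHX58 (ENSG00000108771; chr17:40253422-40264732, minus strand) encodes LGP2, a relative of RIG-I and MDA5 that lacks their signalling domains and modulates both. Its levels were 7.65 and 8.24 CPM in 786-O-Ctrl and 15.6 and 18.2 CPM in 786-O-VHL. Every 786-O-VHL library was above every 786-O-Ctrl library. The log2 fold change was 1.15 (SE 0.158, FDR = 3.304e-07), or 2.22-fold. It was 0.98 with all libraries thinned to the shallowest and 0.97 without replicate 2 of 786-O-VHL, each under 2-fold.

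DDX60 (ENSG00000137628; chr4:169137442-169240034, minus strand) encodes an interferon-inducible helicase linked to RIG-I signalling. It stood at 22.8 and 29.7 CPM in the deeper and shallower 786-O-Ctrl libraries and at 65.1 and 69.2 CPM in 786-O-VHL. Here the 786-O-Ctrl libraries differed more than the 786-O-VHL libraries, and the groups did not overlap. The log2 fold change was 1.39 (SE 0.101, FDR = 1.23e-12), or 2.63-fold. The study lists the DDX60 protein among those it found ubiquitinated and reduced in 786-O-VHL, the opposite direction to this RNA. Protein was not analysed here.

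TLR3 (ENSG00000164342; chr4:186990065-187009227, plus strand) is the endosomal receptor of double-stranded RNA. It stood at 6.98 and 6.65 CPM in 786-O-Ctrl and at 15.9 and 18.9 CPM in 786-O-VHL, where replicate 1 rests on 47 counts. The groups did not overlap. The log2 fold change was 1.41 (SE 0.161, FDR = 1.309e-08), or 2.65-fold.

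Interferon regulatory factors bind paired GAAA repeats, so the promoters of the members are shown where they hold such a pair. RefSeq promoter windows on GRCh38.p14, from 250 bases before to 50 bases after a transcription start, were found for 7 members in 10 windows; DHX58, TMEM173 and MB21D1 were not analysed here. Searched on both strands, the motif GAAANNGAAA was in 1255 of 35116 windows (3.57%). The motif GAAANGAAA, added after the windows had been seen, was in 3.12%, and 6.40% held either. Counted by gene, over all windows of a gene, one or both were present in 5 of the 7 members. The shares above are by window. By gene, 4.38% of genes with a window held GAAANNGAAA and 3.87% held GAAANGAAA. The share of genes with either was not computed. In the stretches below, capitals mark the matches, which overlap in DDX60 and IFIH1, and a match on the other strand reads as its reverse complement.
DDX58, chr9:32526367-32526423, minus strand: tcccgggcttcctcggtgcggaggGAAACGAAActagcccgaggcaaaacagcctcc
IFIH1, chr2:162318675-162318867, minus strand: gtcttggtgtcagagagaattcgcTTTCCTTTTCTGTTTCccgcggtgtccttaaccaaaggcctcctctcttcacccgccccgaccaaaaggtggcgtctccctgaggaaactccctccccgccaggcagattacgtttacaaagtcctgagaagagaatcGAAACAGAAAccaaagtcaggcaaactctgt
DDX60, chr4:168318772-168318864, minus strand: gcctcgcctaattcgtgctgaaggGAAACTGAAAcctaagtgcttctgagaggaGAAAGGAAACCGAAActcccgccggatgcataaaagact
TLR3, chr4:186069128-186069165, plus strand: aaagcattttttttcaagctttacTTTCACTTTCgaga
IFI16, chr1:159009829-159009885, plus strand: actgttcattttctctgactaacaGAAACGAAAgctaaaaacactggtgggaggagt

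IFIH1 held 3 matches of GAAANNGAAA and DDX60 held 2, with the closer form beside one of them. TLR3 held a single match at its transcription start. DDX58 and the second start of IFI16 held the closer form alone. Neither form was in the 1 window of MAVS or the 3 windows of ADAR, which says only that these letters are not there. CGTG, the core that hypoxia-inducible factors bind, was in 5 of the 7 members, in 69.7% of all genes with a window and in 67.0% of all windows. A match describes the sequence and is not evidence that a factor binds it.

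**Figure D2:**
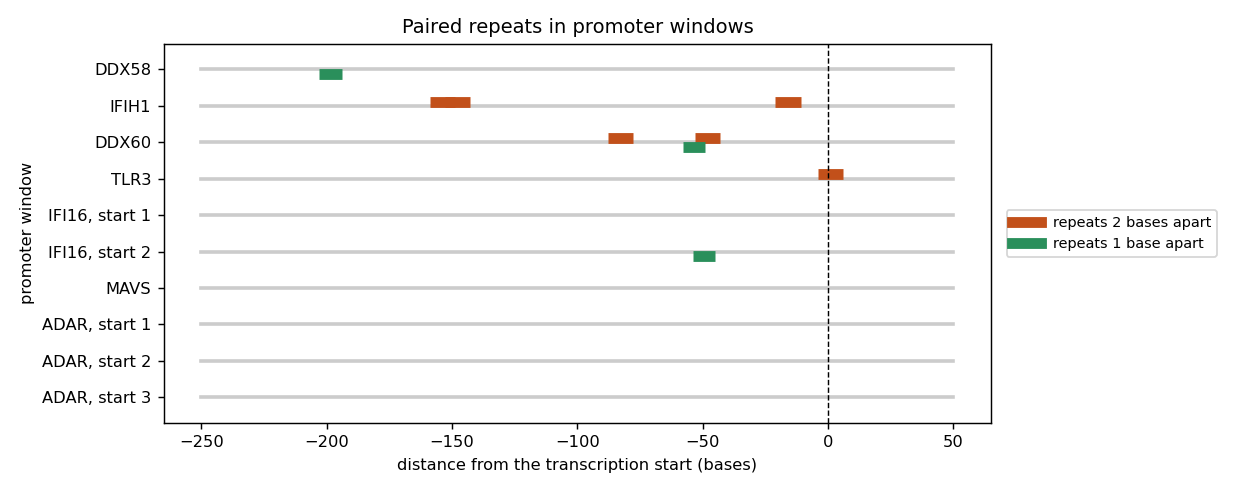
Positions of paired GAAA repeats in the 10 promoter windows of 7 members, by distance from the transcription start in bases; orange bars have 2 bases between the repeats and green bars 1 base. IFIH1 and DDX60 hold 3 and 2 orange bars, and the MAVS and ADAR windows are empty.

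The DNA sensors among the members moved in opposite directions. MB21D1 (listed as CGAS, ENSG00000164430; chr6:74123238-74162020, minus strand) encodes cGAS, the synthase that makes the messenger for STING. It stood at 26.4 and 27.3 CPM in 786-O-Ctrl and at 20.4 and 19.3 CPM in 786-O-VHL. Both 786-O-VHL libraries were lower. The log2 fold change was -0.46 (SE 0.117, FDR = 0.001261), or 1.37-fold lower, and without replicate 2 of 786-O-VHL it did not pass (FDR = 0.08592).

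IFI16 (ENSG00000163565; chr1:158969758-159024945, plus strand) encodes a DNA-binding protein that takes part in STING signalling. Its levels were 63.5 and 59.9 CPM in 786-O-Ctrl and 107 CPM in each 786-O-VHL library. The groups did not overlap and the spread within each was small. The log2 fold change was 0.79 (SE 0.0698, FDR = 8.561e-11), or 1.73-fold. Another gene on the opposite strand overlaps 425 bases of its exons, and 180 bases of MB21D1 exons are overlapped by DDX43; whether counting used strand is not stated in the sources at hand, so reads of such pairs cannot be told apart.

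The adaptors among the members differed little. MAVS (ENSG00000088888; chr20:3827446-3856770, plus strand), the mitochondrial adaptor of RIG-I and MDA5, stood at 190.0 and 185 CPM in 786-O-Ctrl and at 166 and 162 CPM in 786-O-VHL. Both 786-O-VHL libraries were lower, with a log2 fold change of -0.20 (SE 0.0640, FDR = 0.009004). The call was lost without the deeper 786-O-Ctrl library (FDR = 0.1732), without the shallower one (FDR = 0.07697) and without replicate 2 of 786-O-VHL (FDR = 0.0507). With library totals in place of TMM the value was -0.06 (FDR = 0.3982), and with all libraries thinned to the shallowest it was -0.08 (FDR = 0.4899).

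TMEM173 (ENSG00000184584; chr5:138855118-138862520, minus strand) encodes STING, the adaptor of cGAS in the endoplasmic reticulum. It was measured at 30.2 and 29.5 CPM in 786-O-Ctrl and at 33.2 and 31.4 CPM in 786-O-VHL. The libraries did not overlap, and the log2 fold change of 0.09 (95% interval -0.11 to 0.29) did not pass the test (FDR = 0.436). It passed in 0 of the 12 settings run, the reported one included, with library totals giving the largest value, 0.23 (FDR = 0.05423).

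ADAR (ENSG00000160710; chr1:154554171-154600489, minus strand) is the most abundant member. Its levels were 428 and 436 CPM in 786-O-Ctrl and 487 CPM in each 786-O-VHL library. The log2 fold change was 0.17 (SE 0.0602, FDR = 0.01287), or 1.13-fold. The call was lost without the deeper (FDR = 0.2433) or the shallower (FDR = 0.1665) 786-O-Ctrl library, by DESeq2 (FDR = 0.06282) and after thinning (FDR = 0.05496). Library totals in place of TMM gave 0.31.

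**Figure D3:**
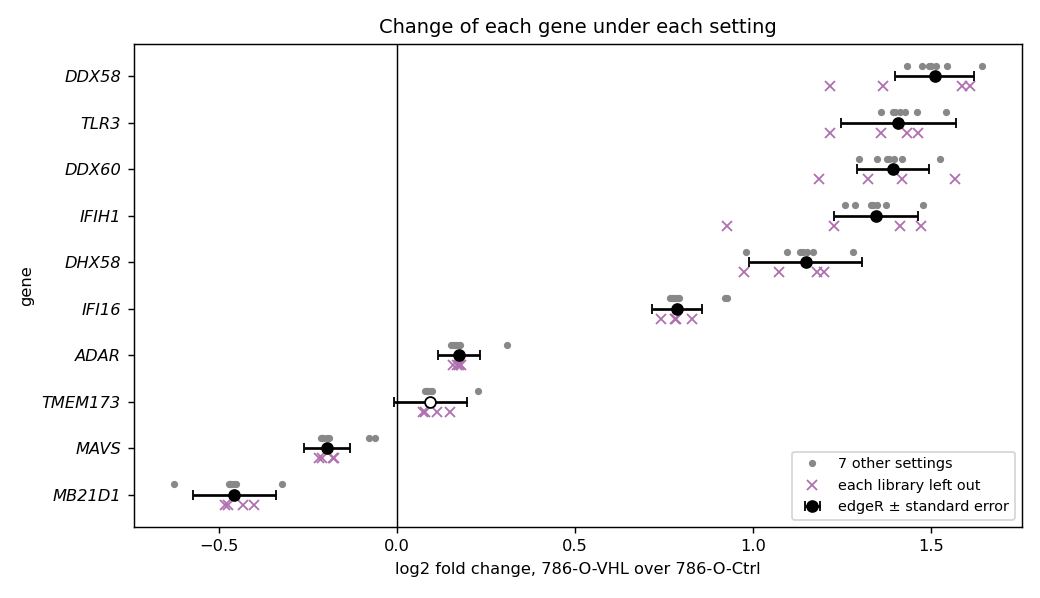
Log2 fold change of each member, 786-O-VHL over 786-O-Ctrl, on the horizontal axis. Black circles are the edgeR values with bars of 1 standard error, grey dots the 7 other settings and crosses the fits without each library; DDX58 is highest at 1.51 and MB21D1 lowest at -0.46.

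Ratios of counts within a library do not depend on how libraries are scaled. For every 100 counts of MAVS, DDX58 had 9.67 and 11.6 in the deeper and shallower 786-O-Ctrl libraries, against 27.8 and 37.2 in replicates 1 and 2 of 786-O-VHL. IFIH1 had 10.8 and 9.76 against 22.2 and 33.2. For both sensors the ratio was higher in each 786-O-VHL library than in each 786-O-Ctrl library. On the DNA side, cGAS had 87.4 and 92.6 counts for every 100 of STING in 786-O-Ctrl, against 61.2 and 61.4 in 786-O-VHL. For every 100 counts of IFI16, cGAS had 41.5 and 45.6 against 19.0 and 18.1. The ratio of RIG-I to MDA5 counts, at 89.8 and 119 against 125 and 112 for every 100, overlapped between the sublines.

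**Figure D4:**
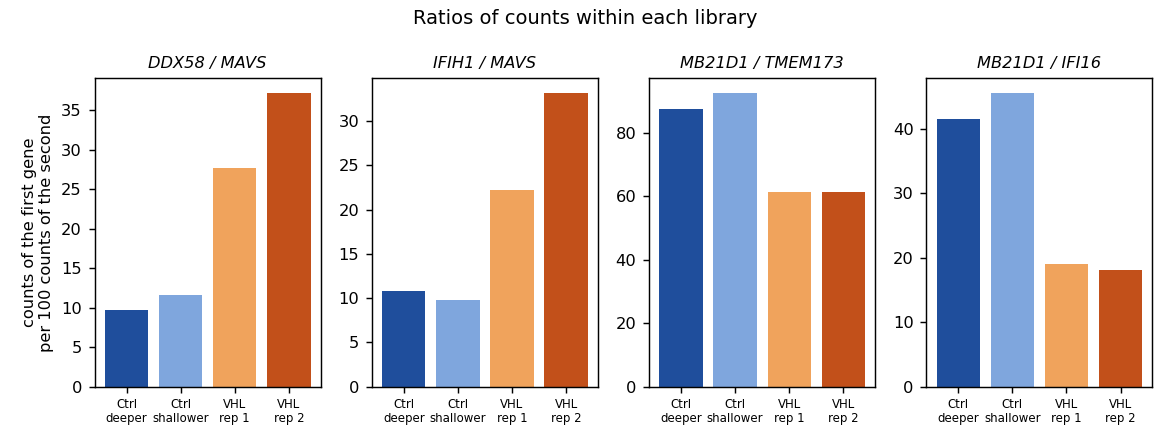
Counts of one member for every 100 counts of another in the same library, with 1 bar for each of the 4 libraries and axes that start at 0. DDX58 for every 100 MAVS counts is at 9.67 and 11.6 in 786-O-Ctrl and at 27.8 and 37.2 in 786-O-VHL, and MB21D1 for every 100 TMEM173 counts at 87.4 and 92.6 against 61.2 and 61.4.

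Divided by the merged exon length, the order of mean levels in 786-O-Ctrl, in CPM per kb, was ADAR at 35.3, MAVS at 15.9, IFI16 at 11.7, MB21D1 at 6.43, TMEM173 at 6.22, IFIH1 at 3.68, DHX58 at 2.08, DDX58 at 1.93, DDX60 at 1.51 and TLR3 at 0.909. Of these neighbours, DHX58 and DDX58 overlapped between libraries. In 786-O-VHL, IFI16 at 20.2 CPM per kb stood above MAVS at 13.9, IFIH1 at 8.69 above TMEM173 at 6.74, and DDX58 at 5.15 beside MB21D1 at 4.75, which it overlapped. DHX58, at 4.42 CPM per kb, also overlapped MB21D1. The order depends on the length used: by canonical transcript, added after the data had been seen, IFI16 stood above MAVS in 786-O-Ctrl too, at 21.4 against 16.0 CPM per kb, and TMEM173 above MB21D1, at 13.7 against 8.38. In 786-O-VHL the canonical length put TMEM173, at 14.9 CPM per kb, above IFIH1, at 12.7, within the range of the IFIH1 libraries. It also put DDX58, at 11.5, above MB21D1, at 6.19, with no overlap.

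Among 96 genes of the members and lists, the genes nearest in pattern to DDX58 over the 4 libraries, by the distance between centred log2 CPM values, were TLR3 at 0.241, DDX60 at 0.242 and SOCS3 at 0.273. For MB21D1, the near genes included DDX3X at 0.107 and TMED2 at 0.115.

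The rest of the pathway held calls in both directions. In all lists together, 28 of 87 genes tested were higher, 36 were lower and 23 did not pass, beside 32.6% higher and 31.9% lower among all genes, against which each list count below is also to be read. The median log2 fold change was -0.06, beside 0.02 for all genes. Of the 15 downstream kinases and adaptors, 2 were higher and 8 lower. TBKBP1, a TBK1-binding protein, was higher by 1.13 on the log2 scale, and AZI2, another, by 0.43. The call of AZI2 was lost by DESeq2 (FDR = 0.05607) and after thinning (0.31, FDR = 0.2116). IKBKE, a relative of TBK1, fell by 0.72 and the kinase RIPK1 fell by 0.58, while TBK1 itself, named after its value was seen, was at 0.13 (FDR = 0.296). The study reports that TBK1 protein was lower in 786-O-VHL while its mRNA was not. IKBKG, the NF-κB regulator NEMO, fell by 1.41, but it has a near-identical pseudogene copy and its value is uncertain.

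Of the 8 transcription factors activated by the sensors, 4 were higher and 3 lower. IRF1, an interferon regulatory factor, stood at 63.7 and 74.7 CPM in 786-O-Ctrl and at 261 and 278 CPM in 786-O-VHL. The groups were far apart, with a log2 fold change of 1.98 (FDR = 4.002e-19). IRF7, a further factor of this family, was higher by 1.74, on 6 to 73 counts a library, and did not pass without replicate 2 of 786-O-VHL (0.82, FDR = 0.4042). IRF5 was higher by 0.68, a call lost after thinning (0.47, FDR = 0.07921), and NFKB1, an NF-κB subunit, fell by 0.51. IRF3 and RELA, which the kinases downstream of the adaptors activate, fell by 0.31 and 0.30.

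Regulators were split. Of 16 regulators of RIG-I, MDA5 and MAVS tested, 7 were higher and 4 lower. TRIM25, a ubiquitin ligase of the RIG-I pathway, was higher by 0.90 the deubiquitinase CYLD by 0.93 and TKFC by 0.98. DHX9, an RNA helicase, fell by 1.49, and the phosphatase subunits PPP1CC and PPP1CA fell by 0.96 and 0.56. Of 14 regulators of cGAS and STING tested, 6 were higher and 7 lower: ENPP1, which degrades the messenger of cGAS, fell by 1.33, and SLC19A1, which carries it into cells, fell by 1.25, while STIM1, a calcium sensor of the endoplasmic reticulum, was higher by 0.91. RNASEH2B, a subunit of ribonuclease H2, was higher by 0.60 and G3BP1 fell by 0.94. ZDHHC11 was higher by 1.33, but it has a near-identical copy and its value is uncertain.

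Of the 14 other sensors, 2 were higher and 8 lower. MRE11, a DNA repair nuclease, fell by 1.51, and XRCC5 and PRKDC, subunits of the DNA-dependent protein kinase complex, fell by 0.92 and 0.81. NLRP1 and ZNFX1 were the higher ones, by 0.48 and 0.37. EIF2AK2, the kinase PKR, named after its value was seen, was at 0.08 (FDR = 0.2693). Of 9 genes of A-to-I editing and control of double-stranded RNA, 2 were higher and 4 lower. ADARB1, a second editing enzyme, was higher by 0.59, but by 0.24 after thinning, where it did not pass (FDR = 0.2968), and ILF2, a protein of double-stranded RNA-binding complexes, fell by 1.04. SUPV3L1, a mitochondrial RNA helicase, was higher by 0.30 and STAU1 fell by 0.34. The call of SUPV3L1 was lost by DESeq2 (0.28, FDR = 0.09882), without the deeper 786-O-Ctrl library, at 0.21, and without replicate 2 of 786-O-VHL, at 0.33.

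Of the 11 genes analysed from the interferons and their receptor signalling, 5 were higher and 2 lower. SOCS1 and SOCS3, inhibitors of cytokine signalling, were higher by 1.84 and 1.27, and STAT2 by 0.82. TYK2, a kinase of the interferon receptor, fell by 0.25, a call lost with library totals (-0.12, FDR = 0.1285). IFNB1, the interferon lambda genes and IRF9 were not analysed here.

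**Figure D5:**
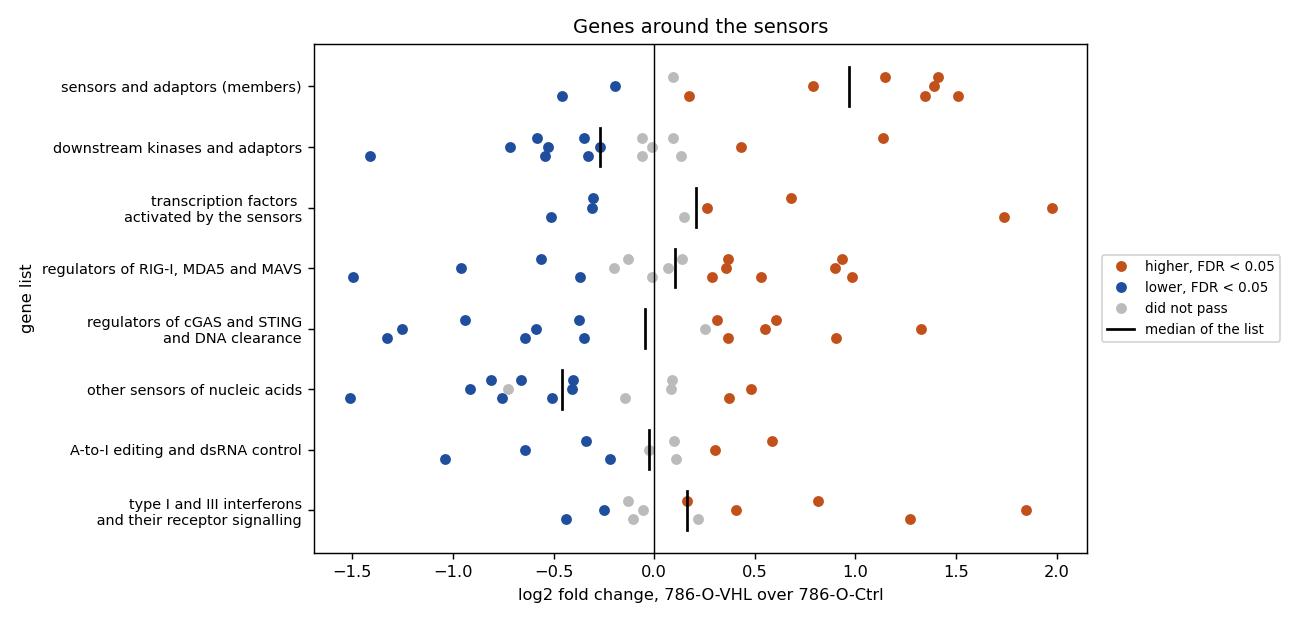
Log2 fold change, 786-O-VHL over 786-O-Ctrl, of the members and of each list of pathway genes, with 1 point for each gene tested, coloured by its call, and a line at the median. The members have a median of 0.97, and the medians of the other lists lie between -0.46 and 0.21.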

How the data were processed

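RNA-seq data of 2 libraries from each subline were analysed. The deposited values are raw counts per gene made by the authors, and per the submitters' processing notes the tools were CASAVA and STAR with hg19. Which counting tool, annotation and strand setting were used: not given in the sources used here. Genes were filtered with filterByExpr (minimum count 10), which removed 577 and left 12335. Tests were edgeR 4.0.16 quasi-likelihood tests on TMM-normalized counts in R 4.3.3, between the 2 groups, with Benjamini-Hochberg adjustment over all genes. They were also run on simulated counts in which few genes changed, whereas many genes were called here. That run therefore does not show how the tests perform on changes this broad. With 2 against 2 libraries an exact permutation test of a single gene cannot give a two-sided p below 0.333. Alternatives were DESeq2 1.42.0, limma-voom (limma 3.58.1), RLE factors, library totals, no filter, a stricter filter, thinning and leaving out each library. Genomic positions and lengths came from GENCODE v44lift37. A count of 3, the floor, was 0.142 to 1.02 CPM. Named genes were all members and, in each list, the called genes with the largest changes; some genes that this rule names are not reported here. The members and lists were chosen with earlier results of these data known.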

Additional observations from a re-analysis of the deposited data

How the results depend on the processing

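No value of a member reversed under any alternative, and DDX58, IFIH1, DHX58, DDX60, TLR3 and IFI16 passed in all 12 settings, the reported one included. In 4 of these a library is left out, so 1 group holds a lone library that is assumed to vary like the other group, and their FDRs rest on the spread of that other group alone. No paired analysis was possible because the 786-O-Ctrl libraries have identical numbers in the deposited header. The count of lower members was 1 with library totals, 1 after thinning and 0 to 2 when each library was left out, 1 without either 786-O-Ctrl library and 0 without replicate 2 of 786-O-VHL. Library totals shifted the median of all genes by 0.13 on the log2 scale and made 41.2% of genes higher and 25.1% lower, against 32.6% and 31.9%. They also gave 4 higher genes in the A-to-I list, 4 among the other sensors and 1 lower interferon gene. DESeq2 gave 1 higher gene in the A-to-I list, 1 among the downstream kinases and 3 among the interferon genes. Thinning gave 1 higher gene in the A-to-I list, 1 among the kinases and 2 among the transcription factors. Leaving out each library gave 1 to 3 higher genes in the A-to-I list, 2 to 5 among the transcription factors and 3 to 5 among the interferon genes. The lowest of these came without the deeper 786-O-Ctrl library or replicate 2 of 786-O-VHL (A-to-I list), without replicate 2 of 786-O-VHL (transcription factors) and without either 786-O-Ctrl library (interferon genes). The cause of these changes was not tested, except that thinning lowers depth and leaving out a library lowers the number of samples.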
